A study of Mus musculus with 4 samples.

Results

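The subject is the NF-kB pathway in the mouse plasmacytoma line J558, taken as 35 named genes that encode its receptors, adaptors, kinases, transcription factor subunits, inhibitors and known targets. Each gene was represented by the probe set whose platform symbol matched it, and by the brightest one where several did. This gave 32 of the 35 genes, out of 18193 genes measured on the array. Nfkb1, Traf3 and Chuk were matched to no single-symbol probe set and are not analysed here. Of the 32 genes, 14 were placed in the classical arm, 9 in the alternative arm and 9 among brakes and targets.

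J558 is a BALB/c (H-2Ld) line of antibody-secreting tumour cells. The 2 AID-silenced clones had received a silencing vector with a sequence against AID, the deaminase that starts class switching and somatic hypermutation of antibody genes, and the 2 control clones had received the empty vector. Both kinds of clone also carried a Neo selection vector and had been selected with G418, so drug resistance was shared by the groups. The titles number the clones as 2 pairs, with 1 AID-silenced and 1 control clone in each. Every clone was measured once, on an Affymetrix mouse expression array, so that a group is 2 clones and a pair is 1 array against 1 array. The labels do not say whether the clones came from separate transfections. The SEs and p-values of limma measure no spread beyond these clones. For each probe set, limma also draws that spread toward the spread of other probe sets of similar signal.

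NF-kB proteins are dimers that are held in the cytoplasm until a signal releases them. In the classical arm, receptors such as the TNF receptor and the Toll-like receptors act through adaptors and TAK1 on the IKK complex, which marks the IkB inhibitors for destruction and frees RelA and c-Rel. In the alternative arm, receptors such as CD40, the lymphotoxin beta receptor and the BAFF receptor release the kinase NIK from a complex that degrades it, and NIK drives the processing of p100 (Nfkb2) into a partner of RelB. Several target genes encode brakes of the pathway, so it limits itself. In plasma cell tumours of human patients the pathway is often switched on by mutations, among them losses of genes that restrain it.

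The kappaB site, the DNA sequence that NF-kB dimers bind, was looked for in the promoters of the members, since it is how a gene of the pathway can also be its target. RefSeq promoters on GRCm38.p6, each running from 250 bases before to 50 after a start of transcription, were found for 29 of the 35 genes. The promoters of Nfkbia, the main inhibitor of the classical arm, and of Nfkb2, the p100 precursor of the alternative arm, are shown whole. They were picked because at the brightest probe set of both genes 1 control clone stood far below the other 3 clones. At the second probe set of Nfkb2 that clone, at 63.0, was level with the AID-silenced clone of pair 2, at 64.5. Capitals mark matches to the kappaB consensus, a decamer of GGG, a purine, any base, A or T, a pair of pyrimidines and CC, read on both strands with overlapping matches joined. The Nfkbia promoter lies at chr12:55492598-55492897 on the minus strand, and that of Nfkb2 at chr19:46304487-46304786 on the plus strand, the first of its 3 annotated starts.
Nfkbia: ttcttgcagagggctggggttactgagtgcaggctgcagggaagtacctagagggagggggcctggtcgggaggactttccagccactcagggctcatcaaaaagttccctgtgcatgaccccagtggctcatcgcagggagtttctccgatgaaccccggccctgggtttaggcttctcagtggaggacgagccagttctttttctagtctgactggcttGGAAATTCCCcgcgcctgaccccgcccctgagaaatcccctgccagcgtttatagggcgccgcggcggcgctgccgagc
Nfkb2: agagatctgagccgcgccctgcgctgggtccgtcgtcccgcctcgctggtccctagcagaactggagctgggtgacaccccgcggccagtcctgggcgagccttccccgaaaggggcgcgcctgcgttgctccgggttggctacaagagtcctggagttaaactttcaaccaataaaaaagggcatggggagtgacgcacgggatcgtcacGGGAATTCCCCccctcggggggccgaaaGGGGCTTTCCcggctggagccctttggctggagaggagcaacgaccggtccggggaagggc

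Of these 29 genes, 11 held at least 1 match (37.9%), against 5.14% of all genes in the promoter table. The members with a match were Map3k7, Bcl10, Rel, Nfkbia and Nfkbie of the classical arm, Traf3 and Nfkb2 of the alternative arm, and Tnfaip3, Tnip1, Cyld and Bcl3 among brakes and targets. With any base allowed at the sixth position the counts were 12 of 29 members and 9.55% of all genes. The shorter pattern GGGNNTTCC was in 8 of 29 members and 6.58% of all genes. A loose pattern, GGG and CC with any 5 bases between them, was in 25 of 29 members and 53.5% of all genes, so it hardly separates promoters. All 4 patterns were searched on both strands, and a stretch can match several of them. The pathway is known for feeding back on its own genes, and these members were listed partly as known targets, so the share describes the list. The windows of 5 members with a match are printed for comparison of the sites, with up to 10 bases on each side. They are the subunit Rel, the inhibitor Nfkbie and the brakes Tnfaip3 and Tnip1, and Bcl3, a nuclear IkB protein. Their GRCm38.p6 promoters lie at chr11:23770920-23771219 on the minus strand for Rel and chr17:45555450-45555749 on the plus strand for Nfkbie. On the minus strand are also those of Tnfaip3 at chr10:19015361-19015660, Tnip1 at chr11:54962891-54963190 and Bcl3 at chr7:19822706-19823005. Counted from the start of transcription, the matches begin at base −92 in Rel, −106 in Nfkbie, −12 in Tnfaip3, which has another at −125, −58 in Tnip1 and 3 in Bcl3. The match in Tnip1 joins matches on both strands into a palindrome of 12 bases.
Rel: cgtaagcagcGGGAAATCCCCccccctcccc
Nfkbie: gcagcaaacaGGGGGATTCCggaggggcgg
Tnfaip3: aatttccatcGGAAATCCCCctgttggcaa
Tnip1: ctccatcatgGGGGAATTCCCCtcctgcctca
Bcl3: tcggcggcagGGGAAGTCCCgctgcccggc

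In the array data, 3 of the 10 measured members with a match had the higher signal in the AID-silenced clone of each pair, 2 had the lower one, and 5 went in opposite directions. Of the 17 measured members with a promoter and no match, these counts were 8, 3 and 6. A match is a stretch of letters in a reference promoter, and binding was not measured.

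**Figure D1:**
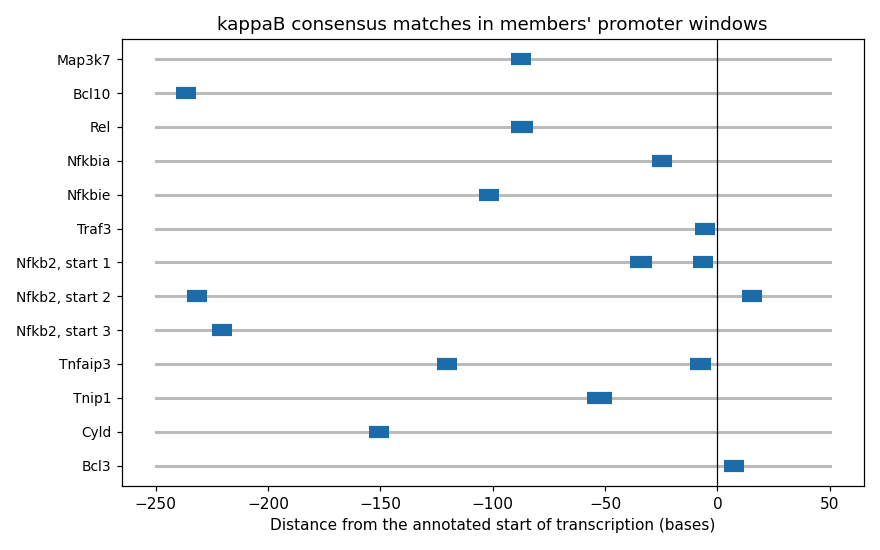
Position of kappaB consensus matches (blue bars) in the promoter windows of the 11 members that hold one, in bases from the annotated start. Each window with a match has 1 grey line from 250 bases before to 50 after, and a further window of Tnfaip3 without a match is not drawn. The 3 starts of Nfkb2 are drawn apart, and windows of 2 of them overlap, so that 1 site appears in both.

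All 4 arrays were scaled to the same trimmed mean of 500, with median signals from 52.7 to 54.9. The highest signal among 27 probe sets for bacterial genes, used here as a mark of background, lay between 27.3 and 41.9. The plasma cell identity of the clones was borne out by their markers, with 8 of 8 measured genes above that mark on all arrays and summed signals of 145700 and 173100 in the AID-silenced clones and 133700 and 170800 in the control clones. Of 5 T cell markers 1 exceeded the mark on every array, with summed signals of 80.0 and 145 in the AID-silenced clones and 172 and 203 in the control clones. Of 5 macrophage markers 1 did, Csf1r, with sums of 369 and 462 in the AID-silenced clones and 312 and 349 in the control clones. Of the 5 stromal and epithelial markers 2 did, with sums of 4216 and 2613 in the AID-silenced clones and 2525 and 1245 in the control clones. Most of that was Epcam, with 4012 and 2475 in the AID-silenced clones and 2327 and 1035 in the control clones, and its part in the results was not tested. In the cell mixture on an array, fewer cells with a transcript and less transcript per cell cannot be told apart.

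No member passed limma's threshold, an adjusted p under 0.05 over all 22519 tested probe sets, and 0.00888% of those probe sets passed. Of the 32 members 28 were bright enough to be tested, and their adjusted p was 0.9996 at the lowest. With the pair as a block, 0.0355% of probe sets passed and again 0 members, with a lowest adjusted p of 0.489. Before adjustment limma placed 2 members under 0.05, Tnfrsf1a and Icam1, where 3.49% of all tested probe sets lay there. All differences below therefore describe these 4 clones.

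On the log2(signal + 16) scale used for all differences, 12 of the 32 members were higher in the AID-silenced clone of both pairs, where 25.1% of all measured genes were. A further 7 were lower in both, where 26.9% of all genes were, and 13 had opposite signs. At a difference of at least 1.5-fold in both pairs, 2 members were higher, Tnfrsf1a and Bcl3, where 2.99% of all genes were. At the same size 1 was lower, Rel, where 3.07% were, and 0 went in opposite directions, where 4.82% did. These shares include dim genes, while 28 of the 32 members were bright enough to be tested. Among the 10475 genes with a tested probe set, 238 were higher, 165 lower and 209 opposite at that size, smaller shares than over all genes. The signals of the groups did not overlap for 10 members that were higher in the AID-silenced clones, where this held for 14.6% of all genes, and for 5 that were lower, where it held for 15.9%. Within pair 1, 5 members were at least 1.5-fold higher and 3 lower, where 13.2% and 12.9% of all genes were. Within pair 2, 6 were higher and 2 lower, where 14.5% and 14.4% were. No test was made of how these shares differ.

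**Figure D2:**
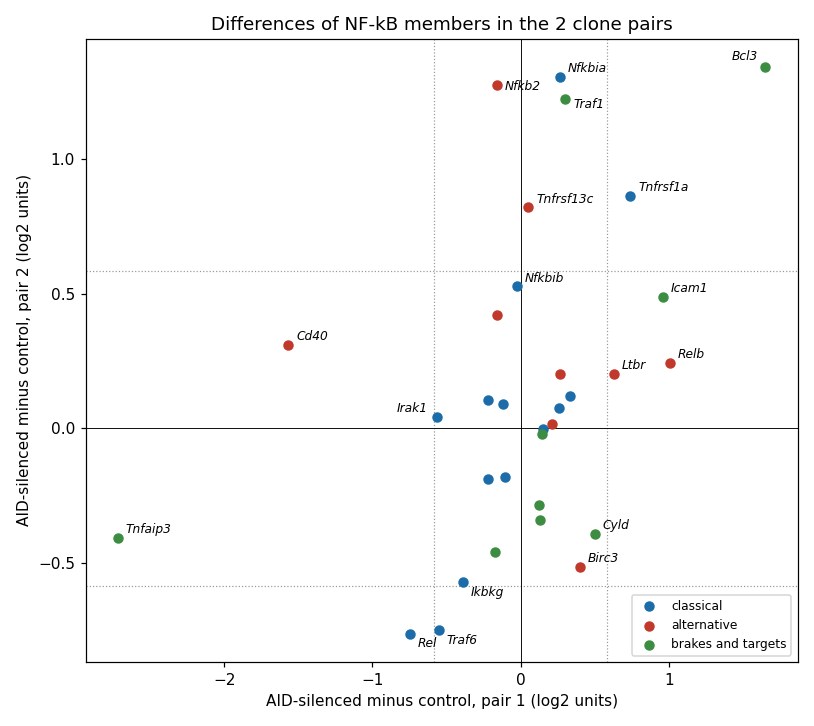
Difference between the AID-silenced and the control clone in pair 1 (horizontal) and pair 2 (vertical), in log2 units of signal + 16, with 1 point for each of the 32 members, coloured by arm. Dotted lines mark 1.5-fold, and beyond them in both pairs lie Tnfrsf1a and Bcl3 at the upper right and Rel at the lower left. Bcl3 exceeded the bacterial mark on only 1 array, and its place depends on the pseudocount.

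The classical arm had no common direction. Across both pairs, 4 of the 14 measured members had the higher signal in the AID-silenced clone and 5 the lower one, with medians of −0.11 in pair 1 and 0.06 in pair 2, beside −0.01 and −0.01 over all measured genes. Tnfrsf1a, which encodes the TNF receptor that starts the classical arm in most cells, had signals of 870 and 654 in the AID-silenced clones of pairs 1 and 2, against 514 and 352 in the control clones. Both AID-silenced clones lay above both control clones, and within either group the clone of pair 1 was the higher one. The differences were 0.74 in pair 1 and 0.87 in pair 2, a mean of 0.80 ± 0.31 (limma SE, n = 2 per group, adjusted p = 0.9996), or 1.75-fold.

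Traf6, the ubiquitin ligase that carries Toll-like receptor and CD40 signals to TAK1, was lower in both AID-silenced clones. Its signals were 257 and 232 in the AID-silenced clones and 384 and 401 in the control clones. The groups did not overlap, and the gap between them exceeded the gap within either. The differences were −0.55 and −0.75, with a mean of −0.65 ± 0.28 (limma SE, n = 2 per group, adjusted p = 0.9996). Of its 5 probe sets 3 were lower in both pairs, 1 of them under the bacterial mark on all 4 arrays, and 1, which did not exceed the mark on every array, was higher in both, so the mean over the probe sets was −0.29.

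At the brightest probe set, the other adaptors differed little or in opposite directions. Myd88, which couples Toll-like and interleukin 1 receptors to the IRAK kinases, had 1160 and 1078 in the AID-silenced clones and 966 and 1021 in the control clones, a mean difference of 0.17. Irak1, a kinase of that complex, differed by −0.57 and 0.04. Its control clone of pair 1 stood at 3086, above the other 3 clones at 1788 to 2079, and without that clone the mean difference was 0.13 in place of −0.26. Of the 4 probe sets of Irak1, 2 were lower in both pairs. All of them were lower in pair 1, by −0.62 to −0.06, and they ranged from −0.42 to 0.38 in pair 2. Map3k7, which encodes TAK1, differed by −0.22 and 0.11. Over its 6 probe sets, 5 of them above the bacterial mark on all arrays, it ranged from −0.83 to 0.14 in pair 1 and from −0.25 to 0.57 in pair 2. Bcl10 and Malt1, the partners that link antigen receptors to IKK, differed at the brightest probe set by at most 0.15 in size in either pair. Over all its probe sets, Bcl10 ranged from −0.42 to 0.29 in pair 1 and from 0.01 to 0.42 in pair 2. Malt1 ranged from −0.32 to 0.15 in pair 1 and from −0.002 to 0.56 in pair 2.

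Both measured IKK subunits were lower in the AID-silenced clones at the brightest probe set. Ikbkg, which encodes the scaffold NEMO, had 1536 and 1016 in the AID-silenced clones and 2014 and 1519 in the control clones. The AID-silenced clone of pair 1 and the control clone of pair 2 were nearly equal, so the groups overlapped, although each pair differed the same way, by −0.39 and −0.57. Of its 6 probe sets 4 were lower in both pairs and 1 was higher in both, with means from −0.72 to 0.17. Ikbkb, the kinase that phosphorylates IkB, had 1633 and 1604 in the AID-silenced clones and 1904 and 1831 in the control clones. The groups did not overlap, but the mean difference was −0.20 ± 0.21 (limma SE, n = 2 per group) and its other 4 probe sets ranged from −0.28 to 0.81, giving 0.01 as the mean over all 5.

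Of the transcription factor subunits, Rela hardly differed. It encodes the main activating subunit and had signals of 3121 and 3111 in the AID-silenced clones and 3358 and 3530 in the control clones, a mean difference of −0.14 ± 0.20 (limma SE, n = 2 per group). The groups did not overlap, and the gap was small. Rel, which encodes c-Rel, a subunit important in lymphocytes, was dim. Its signals were 64.8 and 33.6 in the AID-silenced clones and 119 and 68.2 in the control clones, and the value of 33.6 was under the bacterial mark of 39.9 on that array. Each pair differed alike, by −0.74 and −0.76, and within either group the clone of pair 2 was the lower one. The mean of −0.75 ± 0.43 (limma SE, n = 2 per group) became −0.47 with a pseudocount of 64, and the pairs then no longer both reached 1.5-fold. Dropping single clones gave means from −1.11 to −0.40.

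Of the inhibitors 2 were higher in both pairs and 1 had opposite signs. Nfkbia, which encodes IkB alpha and is itself switched on by NF-kB, had signals of 10809 and 9267 in the AID-silenced clones and 8967 and 3733 in the control clones. The control clone of pair 2 stood apart from the other 3, so the difference was 0.27 in pair 1 and 1.31 in pair 2. All 5 probe sets were higher in both pairs, by 0.16 to 0.31 in pair 1 and 0.42 to 1.41 in pair 2. The mean at the brightest was 0.79 ± 0.40 (limma SE, n = 2 per group, adjusted p = 0.9996). It shrank to 0.16 when the control clone of pair 2 was dropped. When that of pair 1 was dropped it was 1.42, and Nfkbia was then the 1 member called (limma adjusted p = 0.0456), beside 0.648% of all tested probe sets. That call sets the AID-silenced clones against the low control clone alone, which is assumed to vary as they do. Nfkbib, encoding IkB beta, had 568 and 737 in the AID-silenced clones and 579 and 506 in the control clones. Nfkbie, encoding IkB epsilon, had 97.1 and 53.7 in the AID-silenced clones and 73.9 and 48.1 in the control clones, and the groups overlapped.

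**Figure D3:**
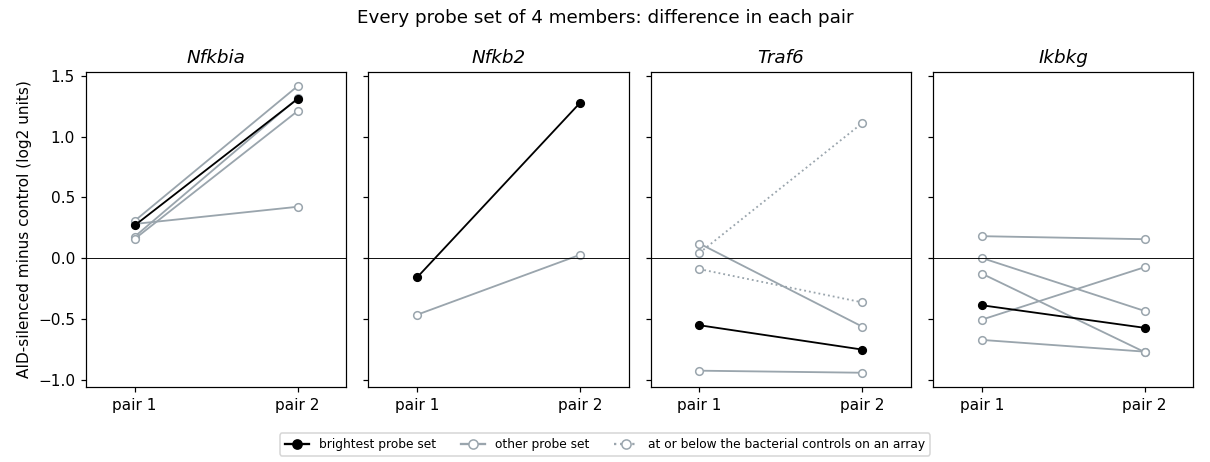
Differences between the AID-silenced and the control clone in pair 1 and pair 2, in log2 units of signal + 16, with 1 line for every probe set of Nfkbia, Nfkb2, Traf6 and Ikbkg. All 5 lines of Nfkbia lie above 0 and rise toward pair 2, the 2 lines of Nfkb2 lie apart in pair 2, and those of Traf6 and Ikbkg lie on both sides of 0.

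Of the 9 measured members of the alternative arm 5 had the higher signal in the AID-silenced clone of each pair, where 25.1% of all genes did, and 0 had the lower one, where 26.9% did. The other 4 had opposite signs, and no test was made of these counts. Its median difference was 0.21 for pair 1 and 0.24 for pair 2. No member of this arm reached 1.5-fold in both pairs. The receptors differed by pair. Tnfrsf13c, which encodes the BAFF receptor of mature B cells, had 1172 and 1923 in the AID-silenced clones and 1129 and 1081 in the control clones. It was high in the AID-silenced clone of pair 2 alone, so that the differences were 0.05 and 0.82, and without that clone the mean of 0.44 became 0.08. Ltbr, the lymphotoxin beta receptor, had 59.0 and 69.8 in the AID-silenced clones and 32.4 and 58.6 in the control clones, and the groups just failed to overlap. The lowest of these, 32.4, was under the bacterial mark of 41.9 on its array. Cd40, the receptor for T cell help, had 2.9 and 73.9 in the AID-silenced clones and 40.0 and 56.5 in the control clones. Both clones of pair 1 were under the mark of their arrays and the AID-silenced clones lay at both ends, so no difference is drawn from it.

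The members that hold NIK down showed small differences. Birc2, which encodes the ubiquitin ligase cIAP1, had 1747 and 1512 in the AID-silenced clones and 1507 and 1496 in the control clones, a mean difference of 0.11. Traf2, which brings the cIAP proteins to the complex, differed by −0.16 and 0.42. Birc3, which encodes cIAP2 and is a target of the pathway, had 2405 and 1168 in the AID-silenced clones and 1814 and 1677 in the control clones. The AID-silenced clones bracketed the control clones, and the differences of 0.40 and −0.52 nearly cancelled. Map3k14, which encodes NIK itself, had 198 and 186 in the AID-silenced clones and 161 and 160 in the control clones. Replicates were close and the groups did not overlap, and the mean difference was 0.24 ± 0.30 (limma SE, n = 2 per group, adjusted p = 0.9996). The SDs were 0.055 within the AID-silenced group and 0.009 within the control group, and the larger limma SE also draws on other probe sets. The second, dimmer probe set of Map3k14 was also higher in both pairs. It had 37.2 and 24.0 in the AID-silenced clones and 5.1 and 5.2 in the control clones, of which only 37.2 exceeded the bacterial mark of its array.

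Both subunits of the arm varied more between clones of a group than between the groups. Nfkb2 had signals of 367 and 196 in the AID-silenced clones and 412 and 71.6 in the control clones. Within either group the clone of pair 2 was the lower one, and the control clone of pair 2 was lowest of all. The differences were −0.16 and 1.28, with a mean of 0.56 ± 0.74 (limma SE, n = 2 per group). The mean turned to −0.58 without the control clone of pair 2 and was 1.70 without that of pair 1, and at the second probe set the differences were −0.47 and 0.03. Relb, the partner of processed p100, had 327 and 107 in the AID-silenced clones and 155 and 87.5 in the control clones. The AID-silenced clone of pair 1 was high, and the other 3 clones lay within a narrower range. The differences were 1.01 and 0.24, with a mean of 0.62 ± 0.55 (limma SE, n = 2 per group), and without that clone the mean was −0.12.

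Brakes and targets were mixed, since 3 of the 9 had the higher signal in the AID-silenced clone of each pair and 2 the lower one, with medians of 0.14 in pair 1 and −0.29 in pair 2. Icam1, an adhesion molecule long used as a readout of NF-kB activity, had signals of 725 and 591 in the AID-silenced clones and 364 and 416 in the control clones. The groups did not overlap, and the AID-silenced clone of pair 1 was the highest. The differences were 0.96 and 0.49, with a mean of 0.73 ± 0.27 (limma SE, n = 2 per group, adjusted p = 0.9996 and 0.578 with the pair as a block), or 1.65-fold. Dropping single clones gave means from 0.58 to 0.87.

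Other targets were dim or gave no consistent difference. Bcl3, a nuclear IkB protein that can turn p50 and p52 dimers into activators, had 40.5 and 31.7 in the AID-silenced clones and 2.0 and 2.8 in the control clones. Both control values and the 31.7 lay under the bacterial mark of their arrays, so no fold is given, and its differences of 1.65 and 1.34 depend on the pseudocount. Traf1, a TRAF protein induced by the pathway, had 36.3 and 53.0 in the AID-silenced clones and 26.4 and 13.5 in the control clones. The control values were under the mark, and the mean of the AID-silenced clones was at least 1.09-fold higher. No such bound holds for pair 1 alone, since 36.3 is under the mark of 41.9 on the control array. Its second probe set was lower in both pairs, by a mean of −0.19. Cflar, which encodes the death inhibitor c-FLIP, differed by 0.12 and −0.29 at the brightest of its 5 probe sets. Its other probe sets went the opposite way in each pair, by −0.53 to −0.12 in pair 1 and 0.14 to 0.74 in pair 2. Nfkbiz, the other nuclear IkB protein, had 292 and 131 in the AID-silenced clones and 331 and 187 in the control clones, and the groups overlapped. Of its 3 probe sets 2 were lower in both pairs and 1 was higher in both.

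The brakes gave no common direction. Tnfaip3, which encodes the ubiquitin-editing enzyme A20, had 1.6 and 29.6 in the AID-silenced clones and 99.6 and 44.5 in the control clones. Both AID-silenced values were under the bacterial mark and both control values above it, so the mean of the AID-silenced clones was at least 2.02-fold lower. This bound is one of group means, and in pair 2 the difference was only −0.41. Its second probe set exceeded the mark only in the clones of pair 1 and differed by −0.34 and 0.07. Tnip1, a partner of A20, had 1181 and 1208 in the AID-silenced clones and 1068 and 1227 in the control clones. Cyld, a deubiquitinase that restrains the IKK complex, had 3671 and 2504 in the AID-silenced clones and 2587 and 3290 in the control clones, and the groups overlapped fully. Of its 4 probe sets 2 dimmer ones, above the mark on all arrays, were higher in both pairs, by 0.40 and 0.06 and by 0.32 and 0.06. Tnfrsf1b, the second TNF receptor, differed by 0.13 and −0.34 at its brightest probe set. At its other probe set, above the mark on all arrays, it was lower in both pairs, by −0.09 and −0.35.

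**Figure D4:**
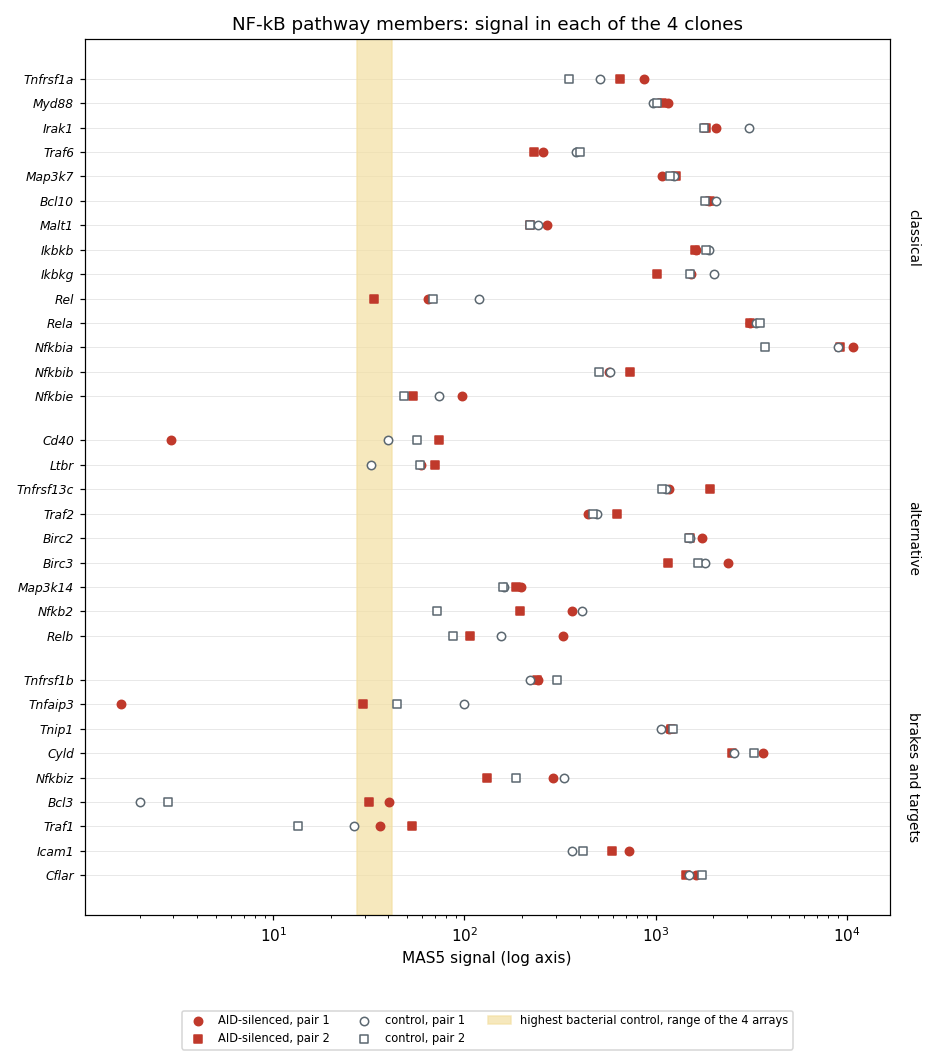
MAS5 signal (log axis) of the 32 members in the 4 clones, with filled red symbols for AID-silenced clones, open grey symbols for control clones, circles for pair 1 and squares for pair 2. The shaded band spans the highest bacterial control signals of the 4 arrays, 27.3 to 41.9, and no value of Bcl3 lies above it.

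The clones themselves differed about as much as the groups. Over the members, the median size of the difference was 0.27 between the AID-silenced and control clone of pair 1 and 0.37 in pair 2, beside 0.28 between the 2 AID-silenced clones and 0.21 between the 2 control clones. Over all measured genes these medians were 0.29, 0.32, 0.35 and 0.37. The control clone of pair 2 had the lowest signal of the 4 clones for 12 of the 32 members (37.5%), where this was so for 27.5% of all genes, and the AID-silenced clone of pair 1 had it for 4 (12.5%), where it was so for 23.8%. Across the 32 members the differences of the 2 pairs had a Pearson r of 0.405, against 0.0917 across all measured genes, given as a description of genes that share arrays. The extremes of the members in pair 1 were Tnfaip3, at −2.72 and −0.41, and Bcl3, at 1.65 and 1.34. Both had values under the bacterial mark. The r without them, or among bright genes only, was not computed, so no concordance of the pathway is drawn from it.

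Of 82 further genes of the pathway 76 were measured and 48 tested, and 0 passed the threshold with or without the block. The AID-silenced clone had the higher signal in both pairs for 14, where 25.1% of all genes did, and the lower one for 20, where 26.9% did, and 42 had opposite signs. The differences at or beyond 1.5-fold in both pairs comprised 3 higher and 3 lower genes, where 2.99% and 3.07% of all genes were. Tlr2, a Toll-like receptor for bacterial lipoproteins, had 157 and 92.8 in the AID-silenced clones and 33.8 and 36.5 in the control clones. Both control values were under the bacterial mark of their arrays, so by the group means it was at least 2.997-fold higher (limma adjusted p = 0.9996). Ier3, an early response gene, had 171 and 206 in the AID-silenced clones and 6.7 and 121 in the control clones, and the lone low clone was the control clone of pair 1. Tnfrsf9, the receptor 4-1BB, had 45.5 and 57.7 in the AID-silenced clones and 8.4 and 14.8 in the control clones. Its control values too were under the mark, and by the group means it was at least 1.27-fold higher.

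The 3 lower genes were Traf5, Tnf and Cd69. Traf5, a TRAF protein used by receptors of the TNF family, had 67.8 and 42.6 in the AID-silenced clones and 196 and 196 in the control clones. The groups were apart, with differences of −1.34 and −1.85 (limma adjusted p = 0.9996). The control clones were level, while the AID-silenced clones differed, and the 42.6 lay just above the bacterial mark of 39.9 on its array. Tnf, the ligand of the TNF receptors, had 11.6 and 34.2 in the AID-silenced clones and 62.5 and 74.1 in the control clones, with both AID-silenced values under the mark, and by the group means was at least 2.06-fold lower. Cd69, an activation marker, had 84.2 and 22.6 in the AID-silenced clones and 824 and 49.2 in the control clones, and its control clones differed more than the groups. Of the 8 measured ligand genes 0 exceeded the mark on all 4 arrays. By sign alone, among 14 further brakes 1 was higher and 7 lower in both pairs, and among 26 further classical genes 4 were higher and 5 lower. Over all genes 25.1% were higher and 26.9% lower, with no test of these counts. At 1.5-fold in both pairs 0 of the further brakes were higher and 0 lower, so no direction is drawn from them.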

How the data were processed

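Deposited values were MAS5 signals, array intensities on a linear scale with 1 value per probe set, per the submitters' processing notes, and the version and settings are not given in the sources used here. MAS5 scales each array globally, so no further normalisation was made. Differences were taken on log2(signal + 16), which understates those of dim genes. Of 45101 probe sets 64 Affymetrix controls were left out, and the 22519 in the upper 0.5 by mean log2 value, a mean signal of about 49.4, entered limma 3.58.1 (R 4.3.3; lmFit, eBayes with a trended and robust prior, all 4 arrays, Benjamini-Hochberg adjustment). The platform annotation gave 34945 probe sets 1 symbol and 932 several, left 9211 unlisted, and all 32 member symbols matched RefSeq. Within-pair counts used all 18193 measured genes. A group with both arrays at or under the highest bacterial control signal has only a bound, and the mean of the brighter group is then set against that signal, as a ratio of group means of log2 signal that need not hold in each pair. The members' values are given in every clone for the 4 measured subunits and for members apart at 1.5-fold in both pairs or without overlap by at least 0.3, and for others chosen after their values were seen. Members, lists and motifs were chosen with earlier results of these data known. The check of pairing compared pair 2 minus pair 1 between groups across probe sets (r = 0.306). What a pair shares is not stated beyond the series text, so the block is an alternative. The fit was tested on simulated data. The level of the silenced gene is not reported here. Figures used matplotlib 3.10.9.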

Additional observations from a re-analysis of the deposited data

How the results depend on the processing

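With the pair as a replicate block 8 of the tested probe sets passed the threshold, against 2 without it, and with a constant, non-robust prior 0 did. Leaving out any 1 clone gave between 0 and 146 probe sets. The 146 came without the control clone of pair 1, and 52 came without that of pair 2, each with a lone control array assumed to vary like the other group. The count of members past the threshold was 0 under every setting tried except without the control clone of pair 1, so that it ran from 0 to 1 over the clones left out. The count of members at least 1.5-fold higher in both pairs was 1 in place of 2 with a pseudocount of 64, with the brightest 0.25 of probe sets, and, in alternatives chosen after the data were seen, with the brightest 0.5 or with members above the bacterial controls on all arrays. Bcl3 is the member lost. The count lower in both was 0 in place of 1 with a pseudocount of 64, with the brightest 0.25 and with members above the bacterial controls on all arrays. No low-signal filter is the setting of these 2 counts already.

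The median of the alternative arm in pair 2, 0.24 at first, was 0.17 with quantile normalisation, 0.21 with median scaling, 0.28 with a pseudocount of 1, 0.17 with 64 and 0.40 with the mean of probe sets. With the mean of probe sets the medians of brakes and targets shrank to 0.02 in pair 1 and −0.02 in pair 2, against 0.14 and −0.29. Ikbkb turned to 0.0078 with the mean of probe sets. Leaving out 1 clone gave −0.12 to 0.58 for Nfkbie, −0.12 to 1.37 for Relb, −0.85 to 0.22 for Nfkbiz, −0.58 to 1.70 for Nfkb2, −0.65 to 0.13 for Irak1 and, with no change of sign, −1.11 to −0.40 for Rel. The cause was not tested. With 2 clones a group, and a background mark of 27.3 to 41.9, differences of members near the mark cannot be resolved.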
